A study of Mus musculus with 6 samples.

Results

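Alpha- and beta-tubulin isoform genes were read in the soleus of Esr2 knockout and wild-type male mice. The members were all probe sets whose array annotation gave exactly 1 gene symbol, that symbol being Tuba1a, Tuba1b, Tuba4a, Tuba8 or Tubb5. This rule found 7 probe sets of 4 genes, among 10833 probe sets of 8251 genes with 1 symbol on the array. Tuba1b had no probe set of its own, because the probe set that covers it is also assigned to other genes. Of the 7 probe sets, 6 passed the filter on low values described below. The choice of genes was made with their values on these 6 arrays known, including the knockout array that stands apart for Tuba1a, so every value of a member is given as a description, with no test.

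The study measured total RNA of the soleus, a postural muscle of mainly slow fibres, with 1 Affymetrix mouse expression array per sample. The knockout mice were BERKO males, without a working Esr2, the gene of the nuclear receptor estrogen receptor beta (n = 3; the labels do not give their strain or age). They were set against wild-type C57BL/6 males (n = 3; age not given). The labels name no treatment and give all 6 arrays the same lot. Whether different samples are different mice is not stated, so the spread between samples, against which limma's p-values weigh a difference, may be technical. The sample titles carry 2 prefixes: array 2 of each group shares one and the other 4 arrays share the other, and what the prefix stands for is not given.

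Tubulins are the building blocks of microtubules. An alpha and a beta subunit pair into a dimer, dimers assemble end to end, and cells mix several isoforms encoded by separate genes that differ most at the tail of the protein. In skeletal muscle fibres microtubules form a lattice below the surface membrane and around the nuclei, carry cargo and transmit load, and the lattice is denser in slow than in fast fibres.

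Intensities are the authors' deposited values on a linear scale, 1 per probe set and array. All arrays had been brought to the same trimmed mean (100.07 or 100.08), so a rise of abundant transcripts can lower others on the same array. For differences, values under 7.8 were set to that floor and log2 was taken. A probe set counted as tested if it exceeded 39.4 on at least 3 of the 6 arrays, which 6369 did. The slow-fibre markers fitted the labelled muscle: all 7 of 7 were above that level, with Myh7, the slow myosin heavy chain, between 7936 and 9902 in the knockout and between 7235 and 8936 in wild type. The Esr2 probe set read 8.4, 3.9 and 6.2 in the knockout, against 2.2, 3.2 and 1.3 in wild type. At or near the floor these readings check nothing about the knockout, and where the probes lie relative to the deletion was not looked up. Esr1, which encodes estrogen receptor alpha, read between 4.0 and 26.3 over its 4 probe sets and all arrays, too low to be tested.

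Over the whole array limma called 0 of 6369 probe sets at an adjusted p of 0.05 (0% called; smallest adjusted p = 0.923), and 334 (5.24%) had an unadjusted p under 0.05. Groups without overlap were seen for 680 of them (10.7%), higher in the knockout for 347 (5.45%) and lower for 333 (5.23%). The tubulin values below stand against that background.

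Tuba1a encodes an alpha-tubulin abundant in developing neurons and also made in many other tissues. Its probe set 100342_i_at read 1264, 423.1 and 353.0 in the 3 knockout samples, against 968.0, 939.6 and 922.8 in the 3 wild-type samples. Knockout array 1 lay above every wild-type array and the other knockout arrays lay far below, so the wild-type values fell in a gap within the knockout group. The knockout mean was 680.1 ± 507.0 and the wild-type mean 943.5 ± 22.8 (SD, n = 3 each). Relative to the wild-type mean, the knockout arrays stood at 1.34, 0.449 and 0.374 times. Within the knockout the highest value was 3.58 times the lowest, and 1.59% of all tested probe sets had a knockout range at least as wide. The gene was chosen with this departure known, so nothing is read from that share. The wild-type arrays differed by a factor of 1.05 at most, a range matched or undercut by 3.41% of tested probe sets.

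The log2 difference of this Tuba1a probe set was -0.72 ± 0.39 (SE; knockout minus wild type). It was -1.29 without knockout array 1, -0.50 without knockout array 2 and -0.37 without knockout array 3, so the size of the difference turned on which knockout array was left out. Leaving out a wild-type array gave -0.73 to -0.70. Over all probe sets, knockout array 2 had the lowest median intensity (36.8, against 39.2 to 40.5 on the others). Its limma array weight was also the lowest (0.508, against 1.123 for knockout array 1), and the part of this in the Tuba1a values was not tested. Among the 4 arrays of one title prefix, which include knockout array 1, the difference was -0.50. Between array 2 of each group, which share the other prefix, it was -1.15. Knockout array 1 shared its title prefix with 1 other knockout array, which read 353.0. The part of the prefix in these values was not tested.

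**Figure D1:**
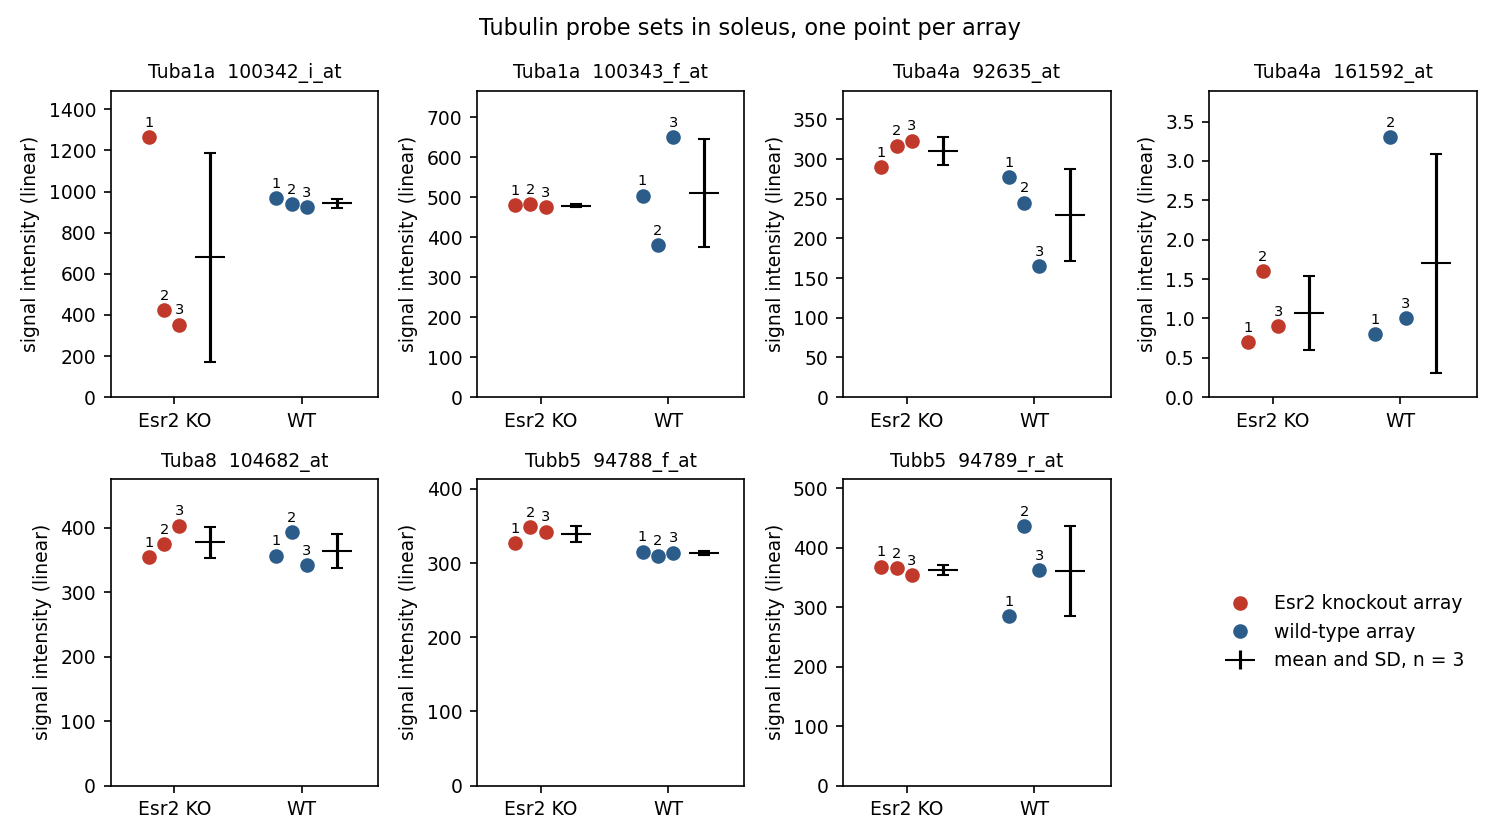
Signal intensity (linear scale from 0, arbitrary units) of the 7 tubulin probe sets, with 1 numbered point per array, knockout left and wild type right, and the mean and SD of 3 arrays beside each group. For Tuba1a 100342_i_at knockout array 1 reads 1264 and the other knockout arrays 423.1 and 353.0, whereas Tuba1a 100343_f_at reads between 474.7 and 483.5 on all 3 knockout arrays.

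The other Tuba1a probe set, 100343_f_at, did not show this pattern. It read 480.5, 483.5 and 474.7 in the knockout, against 503.7, 380.9 and 650.3 in wild type. Here the knockout arrays were nearly equal and lay inside the wild-type range. The means were 479.6 ± 4.47 in the knockout and 511.6 ± 134.9 in wild type (SD, n = 3 each), and the log2 difference was -0.06 ± 0.18 (SE). Knockout array 1 stood at 0.962 times the wild-type mean, next to 0.968 and 0.950 for the other knockout arrays. Of all tested probe sets, 0.471% had a knockout range this narrow or narrower, and 12.6% had a wild-type range at least as wide. These shares too describe a gene chosen with its values known. The spread thus sat in the knockout group for one Tuba1a probe set and in the wild-type group for the other. Without wild-type array 3 the log2 difference turned to 0.13, without wild-type array 2 it was -0.26, and it was -0.26 within one title prefix and 0.34 within the other.

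Both Tuba1a probe sets were designed from the same source sequence. In the manufacturer's naming, the suffix _i marks a set with fewer probes than the usual number, _f a set whose probes are shared by members of a sequence family, and _r a set for which some design rules were relaxed. The probe sequences were not used here, so which transcripts each set reads could not be checked. Alpha-tubulin genes are near-identical in coding sequence, and the signal of an _f set may come from several of them. In the RefSeq table of assembly GRCm38.p6, Tuba1a lies between Tuba1b and Tuba1c as its neighbouring coding genes.

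The disagreement between the Tuba1a probe sets was set against that of other genes by the root mean square (RMS) difference of their log2 patterns over the 6 arrays, each centred on its own mean. For Tuba1a it was 0.70. Over 891 pairs of tested probe sets of 1 gene, from 700 genes, the median was 0.27, and 41 pairs (4.6%) differed at least as much as the Tuba1a pair. Among 112 pairs designed from the same source sequence the median was 0.26, and 3 pairs (2.68%) differed at least as much, Tuba1a included. The others were those of Igdcc3 (0.87) and Nr5a1 (0.70), named after their values were seen. Among the 28 same-source pairs of an _f and an _i set, the RMS differences ran from 0.11 to 0.70 with a median of 0.27, and the Tuba1a pair was at the upper end of that range. Tuba1a was chosen with the values of both its sets known, so these ranks describe the pair and nothing further is read from them.

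**Figure D2:**
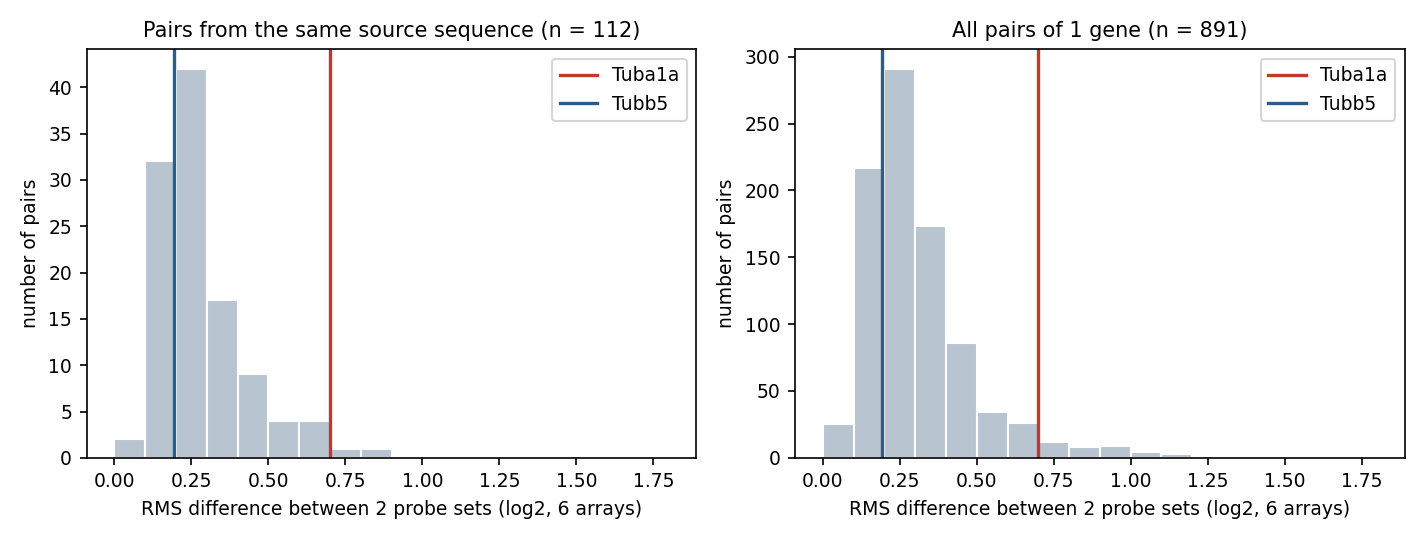
Histograms of the RMS difference (log2 units, 6 arrays) between 2 probe sets of 1 gene, for 112 pairs from the same source sequence and for all 891 pairs, with the Tuba1a pair (0.70) and the Tubb5 pair (0.19) as vertical lines. The Tuba1a line lies in the upper tail of both histograms and the Tubb5 line below the medians of 0.26 and 0.27.

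Neighbouring alpha-tubulins could be read through sets outside the rule. The probe set 98759_f_at is assigned to Tuba1a, Tuba1b, Tuba1c and Gm5620 together, and is the only reading of Tuba1b, an alpha-tubulin made in most cell types. It read 643.3, 714.5 and 1007 in the knockout, against 783.2, 901.9 and 665.8 in wild type. Knockout array 1 was here the lowest of all 6 arrays and knockout array 3 the highest, an order unlike that of Tuba1a 100342_i_at. The groups overlapped, with a log2 difference of -0.01 ± 0.18 (SE; limma adjusted p = 0.997). Tuba1c, a further broadly made alpha-tubulin, was also read by an _f set, whose signal may come from several alpha-tubulin genes. This set read 573.2, 445.7 and 427.8 in the knockout, against 526.0, 510.7 and 583.0 in wild type. As for Tuba1a 100342_i_at, knockout arrays 2 and 3 lay below all wild-type arrays and knockout array 1 did not, but the distances were small. Its log2 difference was -0.17 ± 0.14 (SE; limma adjusted p = 0.958).

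**Figure D3:**
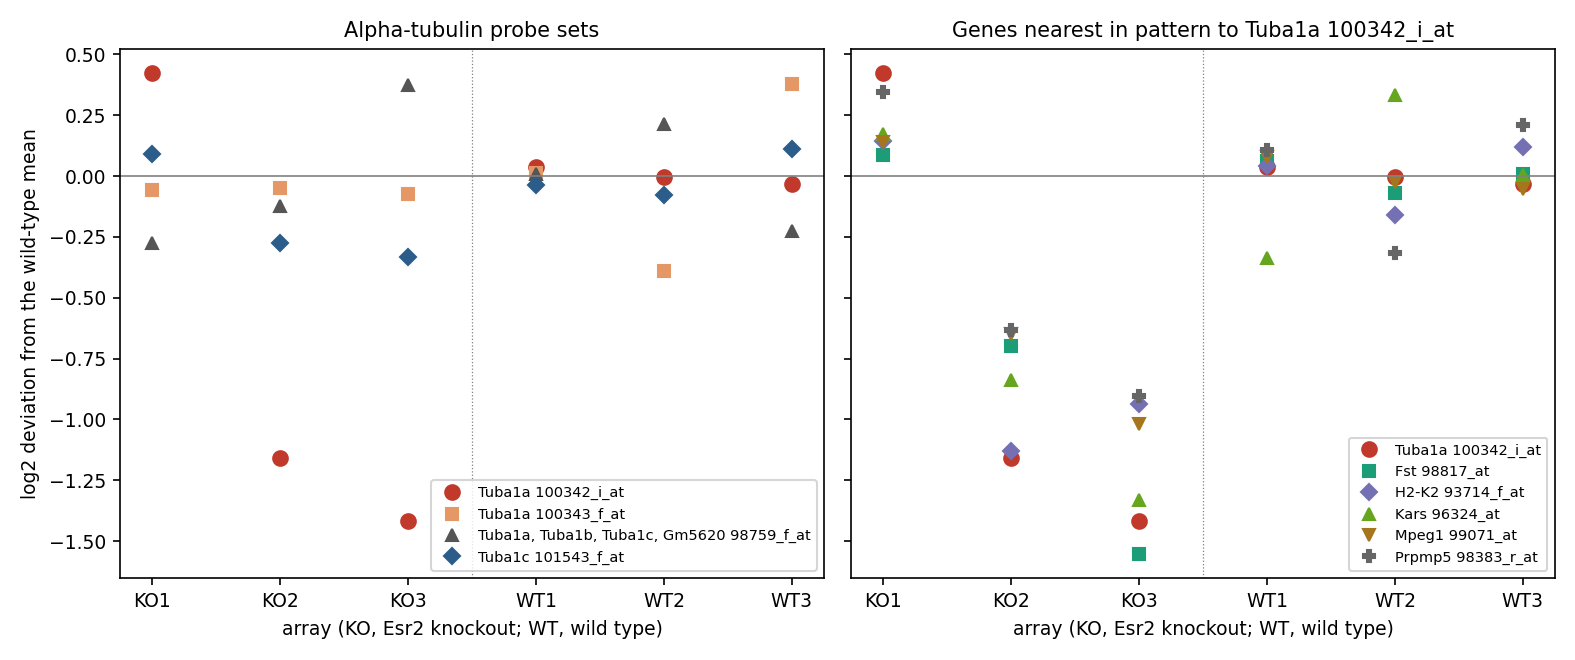
Log2 deviation of each array from the wild-type mean, for 4 alpha-tubulin probe sets (left) and for Tuba1a 100342_i_at with the 5 genes nearest to it in pattern (right), with 1 symbol per probe set and array. On the left, knockout arrays 2 and 3 stand at -1.16 and -1.42 for Tuba1a 100342_i_at but at -0.05 and -0.07 for Tuba1a 100343_f_at; on the right, knockout array 3 is low for all 6 probe sets.

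The 5 genes whose tested probe set came closest to Tuba1a 100342_i_at, by RMS difference over the 6 arrays, were Fst (0.24), H2-K2 (0.24), Kars (0.26), Mpeg1 (0.27) and Prpmp5 (0.30), where the median over 5706 tested probe sets of other genes was 0.71. All 5 were chosen by this likeness. Fst encodes follistatin, a secreted inhibitor of activin and myostatin. It read 52.0, 30.2 and 16.7 in the knockout, against 51.1, 46.6 and 49.3 in wild type, with knockout array 1 beside the wild-type arrays. On knockout arrays 2 and 3 Fst lay below the filter level of 39.4, as did Kars (25.6 and 18.2) and Prpmp5 (33.2 and 27.5). Mpeg1, a perforin-like protein of macrophages, read 111.1, 64.3 and 49.7 in the knockout, against 106.4, 99.1 and 97.0 in wild type. The summed level of 5 macrophage markers ran from 451.6 to 534.5 in the knockout and from 446.0 to 640.9 in wild type, with none at 0 and Adgre1 between 4.4 and 10.1. Among the knockout arrays that sum was highest on array 1 (534.5, against 492.7 and 451.6 on arrays 2 and 3). On wild-type arrays 1, 2 and 3 it was 446.0, 457.2 and 640.9. Wild-type array 1 had the lowest sum of all 6 arrays, and 1 of the 5 markers was highest on knockout array 1. The part of this sum in the Tuba1a values was not tested.

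Tuba4a encodes an alpha-tubulin whose gene, unlike those of most alpha-tubulins, does not code for the final tyrosine. Its probe set 92635_at read 289.7, 316.8 and 322.9 in the knockout, against 277.5, 245.0 and 164.7 in wild type. All knockout arrays lay above all wild-type arrays, although the nearest pair, knockout array 1 and wild-type array 1, differed little. The means were 309.8 ± 17.7 in the knockout and 229.1 ± 58.1 in wild type (SD, n = 3 each), and the log2 difference was 0.47 ± 0.19 (SE), a ratio of 1.38. Without wild-type array 3, the lowest, it was 0.25, and over all fits with 1 array left out it ran from 0.25 to 0.62. Within the title prefixes it was 0.52 and 0.37. Knockout array 1 was the lowest knockout array here, at 1.29 times the wild-type mean.

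The other Tuba4a probe set, 161592_at, read 0.7, 1.6 and 0.9 in the knockout, against 0.8, 3.3 and 1.0 in wild type. All 6 values lay below the floor of 7.8, so this set carried no measure of the transcript and could not be compared with 92635_at. In such whole-muscle samples, fewer cells of a type and less RNA per cell cannot be told apart.

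Tuba8 encodes an alpha-tubulin known from striated muscle, testis and brain. It read 354.1, 374.2 and 402.9 in the knockout, against 356.3, 393.2 and 341.5 in wild type. The groups overlapped and both were narrow, with a highest value 1.14 times the lowest in the knockout and 1.15 times in wild type. The means were 377.1 ± 24.5 in the knockout and 363.7 ± 26.6 in wild type (SD, n = 3 each), and the log2 difference was 0.05 ± 0.12 (SE). It was 0.11 within one title prefix and -0.07 within the other. Over all 6 arrays the Tuba8 range was 0.24 on the log2 scale, and 94.5% of tested probe sets had a range at least as wide.

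Tubb5 encodes the beta-tubulin made in most tissues. Its probe set 94788_f_at read 327.2, 348.7 and 342.1 in the knockout, against 315.2, 310.2 and 314.0 in wild type. Every knockout array was above every wild-type array, by a small amount. The means were 339.3 ± 11.0 in the knockout and 313.1 ± 2.61 in wild type (SD, n = 3 each), a ratio of 1.08 and a log2 difference of 0.12 ± 0.11 (SE). The wild-type range was among the narrowest on the array, with 0.361% of tested probe sets as narrow or narrower. Within the title prefixes the difference was 0.09 and 0.17. With Tuba4a, this made 2 of 6 tested tubulin probe sets whose groups did not overlap with the knockout higher, where 5.45% of all tested probe sets did so. The genes were chosen on this contrast, so nothing is read from that count.

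The second Tubb5 probe set, 94789_r_at, came from the same source sequence. It read 368.1, 365.1 and 353.6 in the knockout, against 284.7, 436.0 and 362.1 in wild type. The knockout arrays were again close together and lay inside the wild-type range. The means were 362.3 ± 7.65 in the knockout and 360.9 ± 75.7 in wild type (SD, n = 3 each), and the log2 difference was 0.03 ± 0.16 (SE). It was -0.13 without wild-type array 1 and 0.17 without wild-type array 2, and 0.17 and -0.26 within the title prefixes. The Tubb5 pair had an RMS difference of 0.19, and 74.9% of the 891 pairs differed at least as much.

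Across the tubulins the spread did not sit in the same group. The wild-type range was wider than the knockout range for 4 of the 6 tested tubulin probe sets, among 47.4% of all tested probe sets. The exceptions were Tuba1a 100342_i_at and Tubb5 94788_f_at. Knockout array 1 stood at 1.34 times the wild-type mean for Tuba1a 100342_i_at, at 1.29 times for Tuba4a 92635_at and between 0.962 and 1.04 times for the other 4 tested member sets. Knockout arrays 2 and 3 stood at 0.449 and 0.374 times for Tuba1a 100342_i_at and between 0.950 and 1.44 times for the other 5. In pattern over the 6 arrays, Tuba8 and Tubb5 94788_f_at were the closest pair of member sets (RMS difference 0.09). Tuba1a 100342_i_at lay between 0.70 and 0.89 from the other 5.

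**Figure D4:**
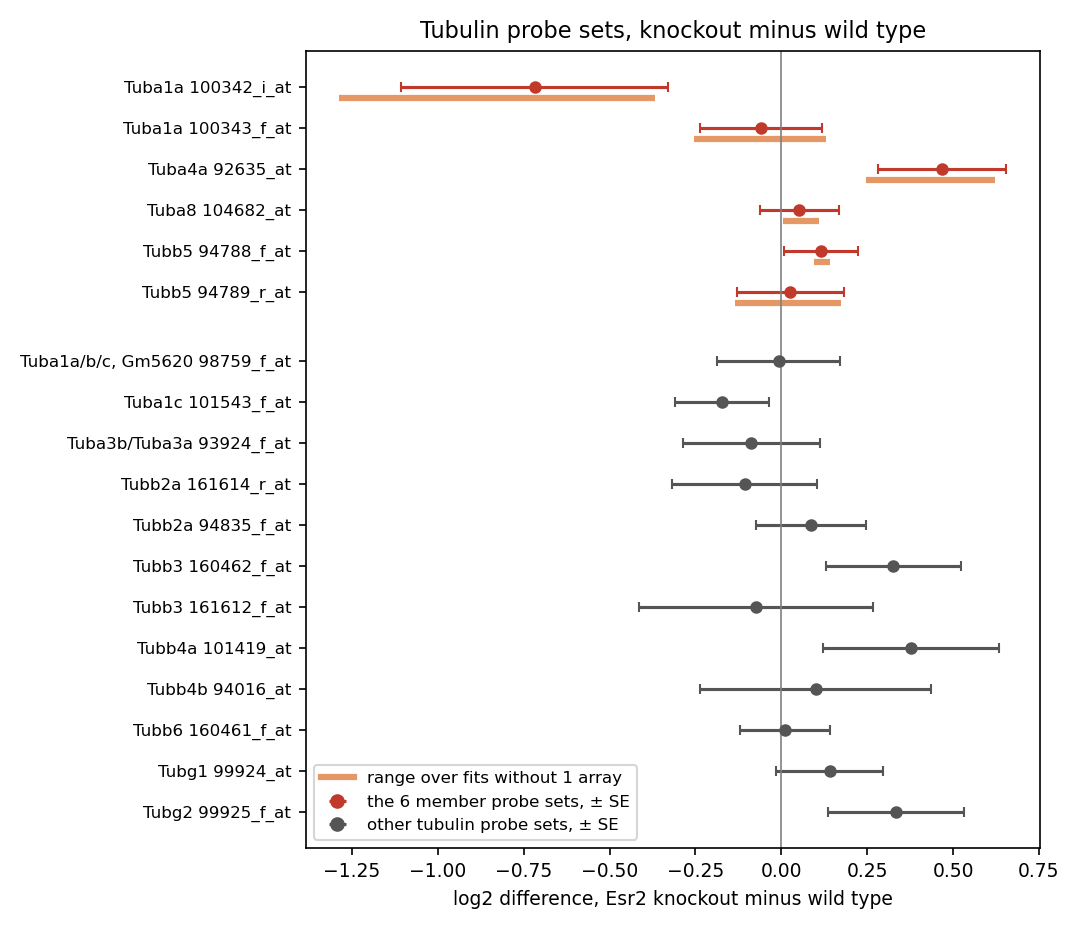
Log2 difference of knockout minus wild type with its SE for the 6 tested member probe sets (red) and 12 other tubulin probe sets (grey), with a bar below each member for the range over fits that leave out 1 array. Tuba1a 100342_i_at is at -0.72 with a range of -1.29 to -0.37, Tuba4a 92635_at is at 0.47, and the other 4 members lie between -0.06 and 0.12.

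Among the other tubulins, 8 of 17 listed symbols had a tested probe set, and 0 passed the adjusted threshold in limma in either direction, with 0 at an unadjusted p under 0.05. The median log2 difference over these 8 genes was 0.12, against -0.01 over 4921 tested genes, and 7 of 8 lay above 0, where 47.6% of all genes did. Some of these lay within their SE of 0: Tubb6 (0.01 ± 0.13), Tubb2a (0.09 ± 0.16), Tubb4b (0.10 ± 0.34) and Tubg1 (0.14 ± 0.16). A second Tubb2a set gave -0.11. The set assigned to both Tuba3a and Tuba3b, at -0.09, was not counted. Tubg2, a gamma-tubulin of the microtubule-nucleating complex, read 65.2, 52.7 and 59.9 in the knockout, against 49.8, 46.1 and 44.7 in wild type, without overlap (log2 difference 0.33 ± 0.20 SE; limma adjusted p = 0.958). Tubb3, the beta-tubulin typical of neurons, read 194.4, 156.0 and 271.3 in the knockout, against 153.7, 176.9 and 153.4 in wild type, and knockout array 3 was the highest. A second Tubb3 set gave -0.07, against 0.33 for this one. Tubb4a, a beta-tubulin of oligodendrocytes and neurons, stood at 0.38 ± 0.26 (SE) with overlapping groups. Tubb6, a beta-tubulin reported as raised in dystrophic mouse muscle, read 171.4, 151.6 and 164.0 in the knockout, against 160.8, 176.1 and 147.0 in wild type (log2 difference 0.01). The sets of Tubg2 and Tubb6, both Tubb3 sets and the Tubb2a set at 0.09 carry the suffix _f. Their signal may therefore come in part from other members of a sequence family. Without the probe sequences these readings cannot be assigned to the named gene alone.

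Genes that fold, bind, modify or move on microtubules were counted from the same fit. Over the 5 lists, the other tubulins included, 64 of 130 listed genes were tested, 0 passed the adjusted threshold in limma in either direction, 33 lay above 0 and 31 below, and the median log2 difference was 0.01. An unadjusted p under 0.05 was found for 3 genes (Dnal4, Cct8 and Dync1i2), or 4.69%, near the 5.24% of all tested probe sets. The groups did not overlap for 4 genes higher and 3 lower in the knockout, 10.9% together, near the 10.7% of all tested probe sets.

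Tubulin folding genes, which include the chaperonin that folds actin and tubulin, had 16 of 23 members tested, with 7 above and 9 below 0. Tcp1, a chaperonin subunit, read 121.1, 119.9 and 101.6 in the knockout, against 92.0, 90.9 and 95.3 in wild type, a ratio of 1.23 without overlap (limma adjusted p = 0.923). Cct8, another subunit of the same ring, lay the other way, at 134.7, 218.6 and 154.3 in the knockout against 264.9, 197.7 and 218.1 in wild type (log2 difference -0.44 ± 0.20 SE; limma adjusted p = 0.923). These subunits were named for their small p, and no difference in direction between them was tested. Pdcl3, a chaperonin co-factor of the phosducin-like family, stood at 0.41 and Arl2, a small GTPase that works with tubulin cofactors, at 0.20.

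Microtubule binding and severing genes had 17 of 34 members tested, 6 above and 11 below 0 (median -0.02). Mapre2, an end-binding protein, read 22.6, 43.3 and 6.4 in the knockout, against 41.6, 46.7 and 38.9 in wild type, near or below the filter level of 39.4 on most arrays (limma adjusted p = 0.937). Mid1ip1 stood at 0.34, Spast, which encodes the severing enzyme spastin, at 0.29, and the destabilizer Stmn2 at -0.19. Of the enzymes that modify tubulin, 2 of 14 were tested, and both are deacetylases. Sirt2 read 297.6, 298.6 and 284.6 in the knockout, against 266.3, 271.9 and 201.2 in wild type, without overlap (ratio 1.20; limma adjusted p = 0.937). Hdac6 read 81.9, 100.7 and 97.5 in the knockout, against 104.0, 104.4 and 106.0 in wild type, also without overlap but lower (ratio 0.887; limma adjusted p = 0.958).

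Microtubule motor genes had 21 of 42 members tested, 12 above and 9 below 0 (median 0.04). Dnal4, an axonemal dynein light chain, had a log2 difference of 0.70 ± 0.20 (SE), with 70.7, 74.1 and 63.0 in the knockout against 48.8, 41.7 and 38.1 in wild type (limma adjusted p = 0.923). Dync1i2, a cytoplasmic dynein intermediate chain, read 52.2, 55.5 and 64.6 in the knockout, against 76.6, 76.4 and 71.6 in wild type (log2 difference -0.39 ± 0.17 SE; limma adjusted p = 0.923). The kinesin Kif22 stood at -0.42, without overlap, and the dynactin subunit Dctn6 at -0.24, with overlap.

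The summed levels of the other marker lists are given beside the tubulin values, and their part in those values was not tested. Markers of muscle of any fibre type (4 of 4) ran from 21801 to 24588 in the knockout and from 17376 to 21597 in wild type. This sum did not overlap between groups, nor did Acta1 and Mb alone, but Ckm and Des did. Slow-fibre markers (7 of 7) ran from 54089 to 61819 in the knockout and from 44351 to 56990 in wild type, with overlap. Smooth muscle markers (4 of 4 on the array) ran from 556.5 to 591.8 in the knockout and from 508.3 to 585.5 in wild type. Knockout array 1 had the highest sum of all 6 arrays, and was the highest for 2 of the 4 markers. Tagln was lowest on that array (178.8). The sums on the other knockout arrays lay inside the wild-type range. Adipocyte markers (2 of 4) ran from 148.9 to 172.2 in the knockout and from 187.3 to 325.9 in wild type. Only the sum was without overlap, and the groups overlapped for each marker alone. Adipoq ran from 70.3 to 120.1 in the knockout and from 81.4 to 231.8 in wild type. Fabp4 ran from 36.2 to 96.4 in the knockout and from 76.8 to 105.9 in wild type. Red cell markers (2 of 4) ran from 2087 to 2328 in the knockout and from 1704 to 4667 in wild type, where wild-type array 1 stood far above the other arrays. Schwann cell markers (3 of 5) ran from 271.2 to 326.5 in the knockout and from 297.0 to 407.6 in wild type. Endothelial markers (5 of 5) ran from 599.1 to 679.6 in the knockout and from 671.8 to 707.0 in wild type. Fibroblast and tendon markers (5 of 6) ran from 4417 to 4666 in the knockout and from 4087 to 5188 in wild type. In each of these 3 lists the groups overlapped. Markers of dividing cells (6 of 7) ran from 139.8 to 225.0 in the knockout and from 191.7 to 231.5 in wild type. Markers of regenerating or denervated muscle (7 of 7) ran from 473.1 to 486.6 in the knockout and from 411.1 to 554.6 in wild type. Lymphocyte markers (4 of 5) ran from 19.4 to 47.8 in the knockout and from 32.4 to 79.4 in wild type, and none of the 4 passed the filter. No marker in any of these lists read 0.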

How the data were processed

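The deposited values were the authors' signal intensities on a linear scale for 12488 probe sets on 6 arrays. Their software is not named in the labels, and detection calls, scanner images and probe-level values were not used. The 2% trimmed mean was equal on all arrays, so the deposited scaling was kept. After 66 controls were set aside, 10833 of 12422 probe sets had 1 symbol in the array's annotation table, 396 had several and 1193 none; 10817 were found by gene ID in RefSeq (GRCm38.p6), and 0 symbols changed.

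Values were floored at the 20th percentile (7.8), taken to log2 and tested where at least 3 arrays exceeded the overall median (39.4). Knockout minus wild type was fitted with limma 3.58.1 in R 4.3.3 (lmFit, eBayes, trend on intensity; two-sided), and p-values were adjusted by Benjamini-Hochberg over 6369 probe sets; the step was tested on simulated data. Precision is limited by the number of arrays, with a median SE of 0.18 for a log2 difference. For gene lists, the probe set with the highest mean stood for a gene. Named were all member probe sets, up to 4 genes per list by p, both estrogen receptors, and the 5 genes nearest in pattern to the member probe set with the widest range. The members, lists and settings were chosen with earlier results of these data known. Alternatives were other scalings (quantile, common median, cyclic loess), floors (5th and 40th percentile), filters (none, 70th percentile), variance models, array weights, each array left out, and title prefix or adjacent title numbers as a block. Python 3.11.15 and matplotlib 3.10.9 made the figures.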

Additional observations from a re-analysis of the deposited data

How the results depend on the processing

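The log2 differences of the 6 tested tubulin probe sets were recomputed under 14 alternatives each. Of these 84 values, 24 could not move: every block holds as many knockout as wild-type arrays, and all tested member values lie above both other floors. Of the other 60, 59 moved by less than the spread between replicates, the pooled SD within groups. For values with 1 array left out this was fixed in advance. Leaving out 1 of 3 arrays always shifts a difference by less than that SD. Only the other scalings and the array weights could have moved a value further. The exception among the 60 was Tubb5 94788_f_at, at 0.18 after scaling to a common median, against 0.12. The median over all probe sets was 0.05 with that scaling. The sign changed in 3 values, for Tuba1a 100343_f_at (0.01 with a common median, 0.13 without wild-type array 3) and Tubb5 94789_r_at (-0.13 without wild-type array 1). With 1 array left out, Tuba1a 100342_i_at ran from -1.29 to -0.37, Tuba1a 100343_f_at from -0.26 to 0.13, Tuba4a 92635_at from 0.25 to 0.62, Tuba8 from 0.004 to 0.11, Tubb5 94788_f_at from 0.10 to 0.14 and Tubb5 94789_r_at from -0.13 to 0.17. The count of probe sets called over the whole array ran from 0 to 1 with an array left out. The 1, without knockout array 1, was Tuba1a 100342_i_at, chosen with that array's departure known, so nothing is read from it. It was also 1 without the filter (Hoxd1, limma adjusted p = 0.024) and 1 in the fit with a replicate block of adjacent title numbers (Myh4, limma adjusted p = 0.00313), and 0 under the other 10 alternatives that kept all arrays; the causes were not tested. Adjacent numbers are known only from the titles, and whether such arrays were handled as pairs is not stated. Their deviations from the group means correlated at -0.005, 0.035 and -0.003 over 6369 probe sets. Of other tubulin and microtubule genes, 0 were called by limma under each of the 18 alternatives. Without detection calls, signal over background could not be judged beyond the floor.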
